A study of Homo sapiens with 21 samples.

Results

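JMJD6 and the 3 genes that follow it on the long arm of chromosome 17 (band 17q25), METTL23, SRSF2 and MFSD11, were followed through RNA and chromatin data from the 786-O cell line, which was established from a human clear cell carcinoma of the kidney. The members were taken by name: 4 genes of the 26809 with a transcript in the RNA tables, and all of their 22 RefSeq transcripts of the 60422 listed. RNA-seq compared JMJD6 KO cells, infected with guide sg2 or guide sg4 against JMJD6, with JMJD6 WT cells that carried the control guide sgCtrl, in 3 libraries each. The labels call the RNA samples triplicates without naming separate cultures, so p-values measure the spread between these libraries, which may be technical, and they do not say whether a guide's cells are 1 clone or a pool. Chromatin immunoprecipitation (ChIP-seq) in JMJD6 WT 786-O cells gave 4 libraries with an antibody to JMJD6, of which 1 and 2 were in sequencing batch 1 and 3 and 4 in batch 2, and 2 libraries, both in batch 2, with one to H3K4me3, the trimethylated histone H3 lysine found at active promoters. The labels name one further experiment, siRNA transfection, in a protocol text that also stands on the RNA samples. These were taken as guide knockouts from their titles.

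JMJD6 is an oxygenase that uses iron and 2-oxoglutarate, hydroxylates lysines of splicing proteins such as U2AF2, and has been linked to the release of paused RNA polymerase. METTL23 is a methyltransferase-like protein with reported activity on histone arginines in mice, SRSF2 is a serine- and arginine-rich splicing factor that binds exonic enhancers, and MFSD11 is a membrane protein of the major facilitator family with no settled substrate. JMJD6 and SRSF2 are read from the minus strand, and METTL23 and MFSD11 from the plus strand. In the gene table of assembly GRCh38.p14 the annotated span of JMJD6 overlaps that of METTL23, and the span of SRSF2 overlaps those of MFSD11 and the microRNA gene MIR636. Neither pair can be separated by strand here, since the strand setting of the quantification is not given in the sources used here, and a read from the overlap could count for either gene.

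RefSeq promoter sequence was matched for 2 of the 4 members, METTL23 and MFSD11. The 250 bases before each start site are printed on the plus strand, 5′ to 3′, with every CG dinucleotide in capitals, because the METTL23 window lies within the targeted gene and the windows differ in base composition. They lie at chr17:76725791-76726040 for METTL23 and at chr17:76737869-76738118 for MFSD11 in GRCh38.p14.
METTL23: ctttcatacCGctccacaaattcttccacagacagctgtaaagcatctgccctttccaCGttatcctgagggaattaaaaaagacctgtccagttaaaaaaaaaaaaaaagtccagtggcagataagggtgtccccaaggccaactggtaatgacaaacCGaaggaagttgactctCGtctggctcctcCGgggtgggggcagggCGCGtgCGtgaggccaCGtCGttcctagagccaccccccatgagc
MFSD11: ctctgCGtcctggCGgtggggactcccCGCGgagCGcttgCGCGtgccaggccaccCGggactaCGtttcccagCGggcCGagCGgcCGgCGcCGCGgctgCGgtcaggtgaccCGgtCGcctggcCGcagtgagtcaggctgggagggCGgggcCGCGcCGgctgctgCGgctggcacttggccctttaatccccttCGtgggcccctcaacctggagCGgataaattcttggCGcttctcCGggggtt
The METTL23 window lies wholly inside the annotated span of JMJD6, the gene that the guides target. The MFSD11 window lies inside the span of MFSD11 itself and outside that of SRSF2. The METTL23 window holds 10 CG dinucleotides, and 52.2% of 35116 RefSeq windows of this length hold as many. The MFSD11 window holds 29, and 14.1% hold as many. G and C make up 52.0% of the METTL23 window and 72.4% of the MFSD11 window. On either strand, GGGCGG occurs in the MFSD11 window and in 42.6% of all windows, while TATAAA (10.7% of all windows) and CCAAT (32.0%) occur in neither window. These letters are a description of the windows only.

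The RNA libraries held from 14302316 to 16300347 estimated counts with sg2, from 15445425 to 16172033 with sg4 and from 14224263 to 15549632 with the control guide. Of the kidney and clear cell markers, 8 of 9 had a transcript in the tables, and their summed level was 6722 to 7106 CPM with sg2, 6891 to 7143 CPM with sg4 and 6390 to 6635 CPM in the controls (CPM, a count relative to its library's size after edgeR's normalisation). Most of this sum was VIM, at means of 5502 CPM with sg2, 5629 CPM with sg4 and 5225 CPM in the controls. CA9 averaged 0.806, 1.02 and 0.976 CPM in the same order. The erythroid genes HBB and HBA1 were at 0 in all 9 libraries, and the endothelial markers summed to at most 0.440 CPM. The 4 leukocyte markers summed to 41.7 to 48.1 CPM with sg2, 44.1 to 53.0 CPM with sg4 and 52.1 to 66.3 CPM in the controls, with PTPRC at 0 in every sg2 and control library and at most 0.189 CPM with sg4. Nearly all of the leukocyte sum was CD68, at means of 45.6 CPM with sg2, 48.9 CPM with sg4 and 57.2 CPM in the controls. The 4 fibroblast markers summed to 8.99 to 10.5 CPM with sg2 and 7.86 to 15.7 CPM with sg4. In controls 1, 2 and 3 the fibroblast markers summed to 57.2, 13.6 and 10.4 CPM. In the mean of both guides, edgeR's quasi-likelihood test at an adjusted p under 0.05 called 4 of the 12 markers tested, against 13.9% of all genes. KRT18, a keratin gene of epithelial cells, rose by 0.45 on the log2 scale (edgeR adjusted p = 5.96e-06), the only call among 8 tested kidney and clear cell markers. CD68, a macrophage marker and the only leukocyte marker tested, fell by 0.28 (edgeR adjusted p = 0.0193), but not without control 3 (−0.16, adjusted p = 0.249). Of 3 fibroblast markers tested, the collagen gene COL1A2 fell by 4.35 (edgeR adjusted p = 0.00131) and LUM, which encodes lumican, fell by 0.97 (edgeR adjusted p = 0.00244). Without control 1, which had 298 COL1A2 counts against 22 and 2 in controls 2 and 3, neither was called (COL1A2 −1.19, adjusted p = 0.525; LUM −0.44, adjusted p = 0.159), and DESeq2 did not call COL1A2 either (adjusted p = 0.101). By guide, CD68 was called with sg2 (edgeR adjusted p = 0.0220) but not with sg4 (adjusted p = 0.127). The part of these markers in the results on the members was not tested.

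JMJD6 was the member that changed. It had 17.1, 16.05 and 17.3 CPM in the 3 sg2 libraries, 11.7, 14.4 and 10.7 CPM in the sg4 libraries, and 41.5, 40.9 and 44.4 CPM in the controls. All 6 knockout libraries lay below every control, and all 3 sg4 libraries lay below every sg2 library. The values rest on 225 to 275 estimated counts per sg2 library, 163 to 218 per sg4 library and 616 to 628 per control. The means were 16.8 ± 0.651 CPM with sg2, 12.3 ± 1.91 CPM with sg4 and 42.3 ± 1.88 CPM in the controls (SD, n = 3 each).

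With sg2 the log2 level of JMJD6 fell by 1.33 ± 0.103 (SE; edgeR's quasi-likelihood test, p adjusted by the Benjamini-Hochberg method = 1.28e-08), which leaves 39.8% of the control level. With sg4 it fell by 1.78 ± 0.106 (edgeR adjusted p = 3.16e-11), which leaves 29.0%. In the mean of both guides the log2 fold change was −1.56, with a 95% interval from −1.73 to −1.38 (edgeR adjusted p = 5.41e-12). A gene was called at an adjusted p under 0.05, and JMJD6 had the lowest p of all 13530 tested genes in the contrast of sg2, of sg4 and of both. It was the only one of the 4 members called in any of these, against 10.4% of all genes with sg2, 8.43% with sg4 and 13.9% with both. Both guides were set against the same 3 controls. In bulk RNA, fewer cells with the transcript and less transcript per cell cannot be told apart, and whether the remaining transcripts carry an edit was not analysed here. With any 1 of the 9 libraries left out, the mean change stayed between −1.62 and −1.51.

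Between the guides, the level of JMJD6 with sg4 less that with sg2 was −0.45 on the log2 scale (95% interval −0.69 to −0.22, unadjusted p = 0.000477). The adjusted p was 0.258 over all genes (edgeR quasi-likelihood test), so the difference did not pass the threshold, which 0.0591% of all genes passed. Without a filter on low counts the edgeR adjusted p was 0.0405, and over all alternatives it ran from 0.0405 to 0.754. The control level and the levels under each guide are shown in the plot of gene levels.

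**Figure D1:**
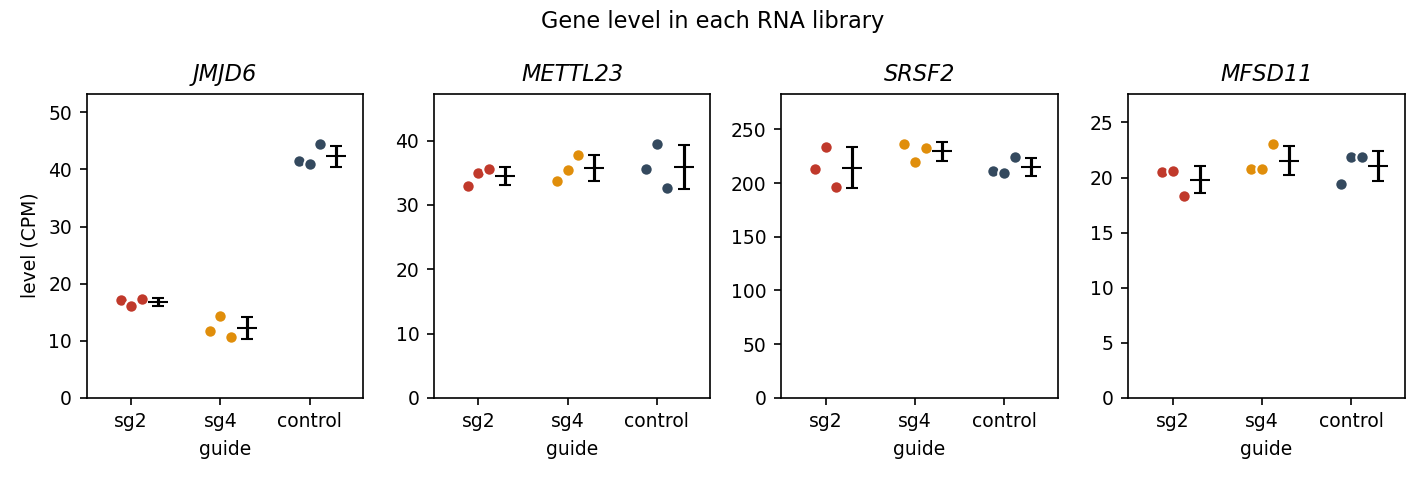
Level of each gene in each RNA library in CPM (linear axes from 0), with 3 points per guide and the mean with its SD beside them. JMJD6 sits at 16.05 to 17.3 CPM with sg2 and 10.7 to 14.4 CPM with sg4, against 40.9 to 44.4 CPM in the controls, while the groups of METTL23, SRSF2 and MFSD11 overlap.

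The tables list 2 JMJD6 transcripts, NM_001081461 of 5423 bases and NM_015167 of 1822 bases. Both fell with both guides. NM_015167 had 133, 90 and 111 estimated counts with sg2, 82, 99 and 72 with sg4, and 291, 310 and 308 in the controls. NM_001081461 had 142, 135 and 142 with sg2, 104, 119 and 91 with sg4, and 325, 318 and 317 in the controls. For each transcript all 6 knockout libraries lay below every control.

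NM_015167 averaged 9.08 ± 1.18 TPM with sg2, 6.50 ± 1.11 TPM with sg4 and 25.9 ± 1.97 TPM in the controls (SD, n = 3 each). TPM is scaled to transcript length and to the same sum in each library, so levels of different transcripts can be compared. NM_001081461 averaged 3.44 ± 0.171 TPM with sg2, 2.40 ± 0.343 TPM with sg4 and 8.13 ± 0.502 TPM in the controls. Per length, the shorter transcript was thus the more abundant under each guide. The log2 fold change of NM_015167 in the mean of both guides was −1.68 ± 0.101 (SE, edgeR adjusted p = 1.48e-11 over 34794 transcripts), with −1.46 for sg2 and −1.90 for sg4. That of NM_001081461 was −1.44 ± 0.091 (edgeR adjusted p = 2.71e-11), with −1.21 for sg2 and −1.67 for sg4. Averaged over both guides, 7.95% of all transcripts were called, and of the 22 member transcripts only these. With sg2 alone 5.95% of all transcripts were called, and with sg4 alone 4.32%. All 22 passed the filter on low counts.

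The share of NM_015167 in the JMJD6 counts was 48.4, 40 and 43.9% with sg2, 44.1, 45.4 and 44.2% with sg4, and 47.2, 49.4 and 49.3% in the controls. The sg4 values lay below every control, and the sg2 values overlapped the controls. A test of the transcript against the rest of its gene found a log2 difference of −0.13 (edgeR diffSpliceDGE, unadjusted p = 0.223, adjusted p over 28817 transcripts = 1.00). That test called 5 transcripts in all, or 0.0174%. The deposited counts are whole numbers, and how reads shared by several transcripts were assigned is not stated. Over all 2455 genes with 2 transcripts and at least 300 control counts, the smaller share had a median of 44.4%, with quartiles of 37.5 and 47.6%. In the controls NM_001081461, the longer, held 51.4 ± 1.202% of the JMJD6 counts (SD, n = 3). Among the 151 of these genes in which the longer transcript had at least 2 times the length of the shorter, the longer held a median of 85.7% of the control counts, with quartiles of 76.9 and 91.9%.

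**Figure D2:**
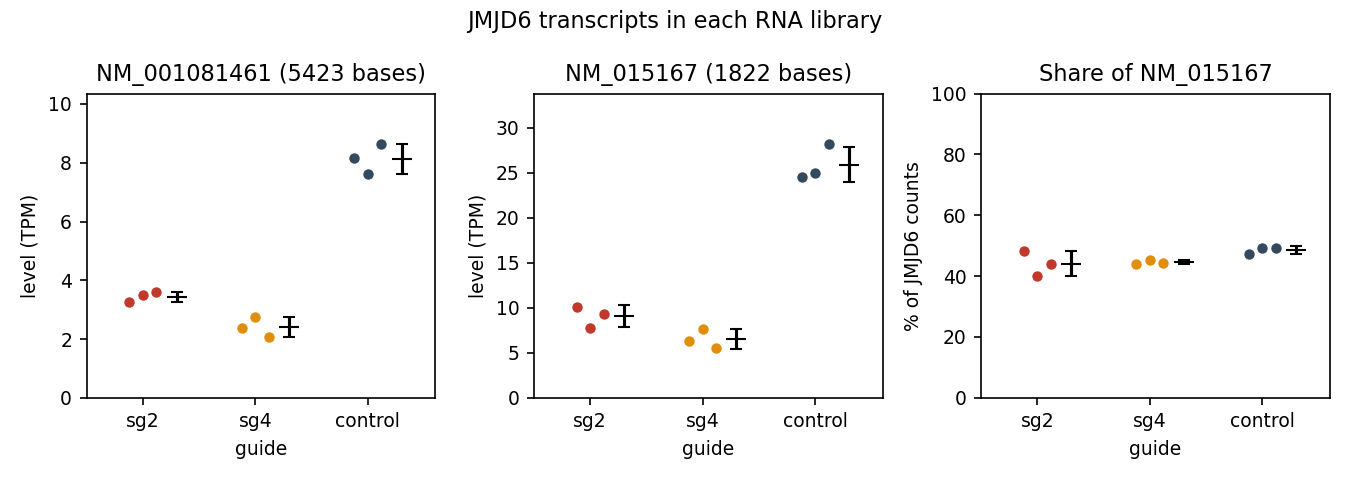
Level of the 2 JMJD6 transcripts in TPM and the share of NM_015167 in the JMJD6 counts in percent, each library as a point and the mean with its SD beside it, all axes from 0. Both transcripts are lower in every sg2 and sg4 library than in any control, whereas the shares lie between 40 and 49.4% in all 9 libraries.

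METTL23, whose span begins inside JMJD6, had 32.9, 35.0 and 35.6 CPM with sg2, 33.8, 35.5 and 37.8 CPM with sg4, and 35.6, 39.4 and 32.6 CPM in the controls. The highest and the lowest of the 9 values were both controls, so the groups overlapped throughout. The log2 fold change of METTL23 was −0.06 with sg2 (edgeR adjusted p = 0.742) and −0.01 with sg4 (adjusted p = 0.965). In the mean of both guides it was −0.03, with a 95% interval from −0.19 to 0.12 (edgeR adjusted p = 0.832). The median size of the log2 change over all tested genes in that contrast was 0.117. Over all alternatives the mean change of METTL23 ran from −0.14 to 0.04, and the change with sg4 from −0.15 to 0.06. The sign of these METTL23 values is not stable: without control 2 the mean change was 0.04 (edgeR adjusted p = 0.838), and over all alternatives the adjusted p ran from 0.368 to 0.956.

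METTL23 had 10 transcripts of 795 to 1212 bases, each with a count in every library. By the mean of both guides none was called by edgeR or DESeq2, and 1 had an unadjusted p under 0.05 in edgeR. That transcript, NM_001206986, had the lowest log2 fold change of the 10 at −0.39 ± 0.162 (SE, unadjusted p = 0.0248, edgeR adjusted p = 0.156). It had 64, 50 and 48 estimated counts with sg2, 59, 58 and 65 with sg4, and 76, 94 and 49 in controls 1, 2 and 3. Control 3 lay among the knockout libraries, and without it the value was −0.57 (edgeR adjusted p = 0.0419), the lowest adjusted p over all alternatives, which reached 0.639. The highest of the 10 was NM_001302703 at 0.35 ± 0.176 (SE, edgeR adjusted p = 0.257), with 69, 51 and 91 counts with sg2, 55, 62 and 62 with sg4, and 46, 60 and 43 in the controls. In the mean of both guides neither was called against the rest of METTL23 by the diffSpliceDGE test, with unadjusted p of 0.0291 and 0.0294 and adjusted p of 1.00. By guide, the same test gave NM_001302703 0.54 with sg2 (unadjusted p = 0.00557) and 0.21 with sg4 (unadjusted p = 0.290). It gave NM_001206986 −0.39 with sg2 (unadjusted p = 0.0399) and −0.32 with sg4 (unadjusted p = 0.0917). Neither transcript was called with either guide. As levels in the mean of both guides, the other 8 transcripts lay between −0.24 and 0.30. With sg2 alone, NM_001206983 among them stood at −0.37 (unadjusted p = 0.0239, edgeR adjusted p = 0.171). With sg4 it stood at −0.11 (unadjusted p = 0.466, edgeR adjusted p = 0.767).

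SRSF2, the splicing factor gene next in line, had 214, 234 and 196 CPM with sg2, 236, 219.8 and 233 CPM with sg4, and 211, 209 and 224 CPM in the controls. The sg2 values spanned those of the controls, and 2 of 3 sg4 values lay above every control. The log2 fold change of SRSF2 was 0.10 with sg4 (95% interval −0.03 to 0.22, edgeR adjusted p = 0.362) and −0.00213 with sg2 (adjusted p = 0.988). The mean over both guides was 0.05, with a 95% interval from −0.06 to 0.16 (edgeR adjusted p = 0.627). SRSF2 did not pass the threshold between the guides, at 0.10 for sg4 against sg2 (edgeR adjusted p = 0.625).

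SRSF2 had 3 transcripts, the coding NM_001195427 and NM_003016 and the non-coding NR_036608. The share of NM_003016 in the SRSF2 counts was 34.3, 31.9 and 32.7% with sg2, 33.6, 33.4 and 32.9% with sg4, and 36.3, 35.3 and 35.8% in the controls. All 6 knockout values lay below every control. NM_003016 against the rest of SRSF2 gave a log2 difference of −0.11 with an unadjusted p of 0.0870 and an adjusted p of 1.00 (edgeR diffSpliceDGE).

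NM_001195427 made up 38.7, 41.4 and 40.4% with sg2, 38.2, 39.0 and 39.8% with sg4, and 35.3, 38.8 and 36.4% in the controls. Here control 2 lay within the range of the knockout libraries. As a level, NM_001195427 had a log2 fold change of 0.15 ± 0.062 in the mean of both guides (SE, unadjusted p = 0.0191, edgeR adjusted p = 0.133). NM_003016 stood at −0.06 (adjusted p = 0.593) and NR_036608 at 0.04 (adjusted p = 0.771). None of the 3 was called by edgeR or DESeq2, and NM_001195427 was the only one with an unadjusted p under 0.05 in edgeR. NR_036608 held 26.8 ± 0.175% of the SRSF2 counts with sg2, 27.7 ± 0.521% with sg4 and 27.4 ± 1.28% in the controls (SD, n = 3 each).

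MFSD11, the membrane protein gene that overlaps SRSF2, had 20.5, 20.6 and 18.4 CPM with sg2, 20.7, 20.7 and 23.0 CPM with sg4, and 19.5, 21.9 and 21.8 CPM in the controls. Its groups overlapped. The log2 fold change of MFSD11 was −0.09 with sg2 (edgeR adjusted p = 0.657), 0.03 with sg4 (adjusted p = 0.901) and −0.03 in the mean of both, with a 95% interval from −0.21 to 0.15 (adjusted p = 0.882). Its 7 transcripts ran from 2643 to 3104 bases, and their log2 fold changes in the mean of both guides from −0.13 for NM_001242535 to 0.11 for NM_001242532. Of these 7, 0 were called by edgeR, 0 by DESeq2, and 0 had an unadjusted p under 0.05 in edgeR. The intervals of METTL23, SRSF2 and MFSD11 leave room for changes of up to about the size of their bounds, so they do not show that these genes stayed equal.

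**Figure D3:**
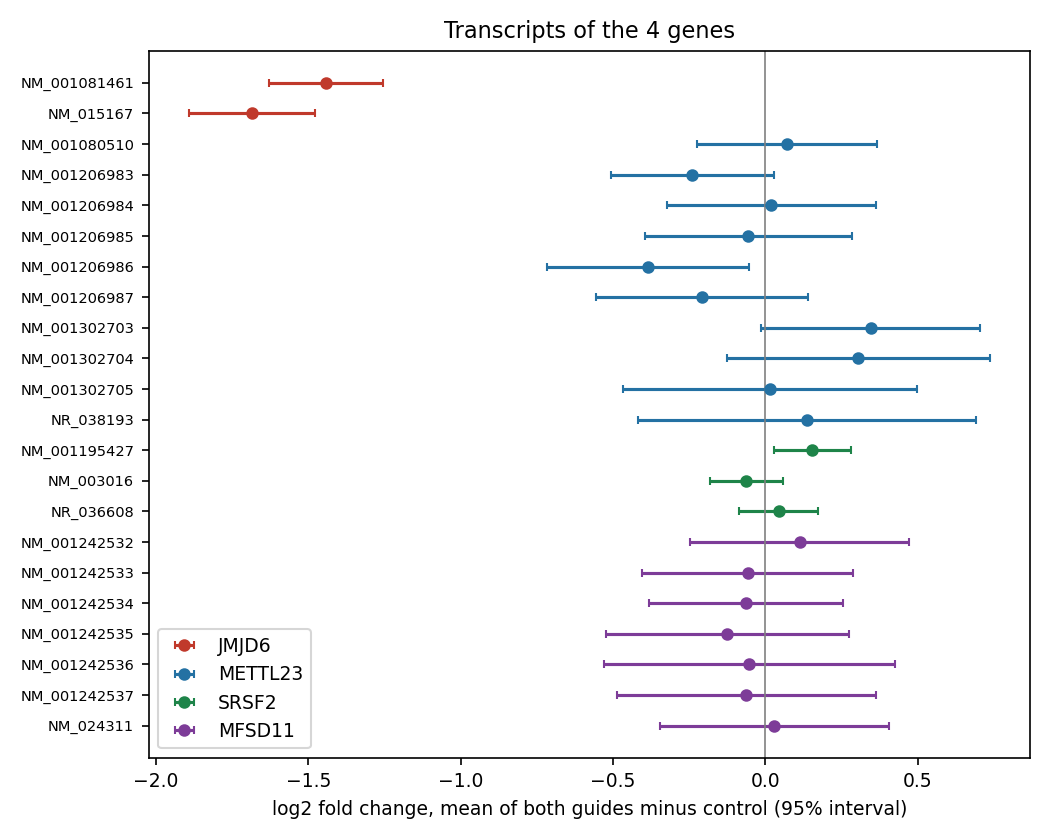
Log2 fold change of each of the 22 member transcripts, mean of both guides minus control, with its 95% interval from the edgeR fit. The 2 JMJD6 transcripts lie at −1.44 and −1.68, and the 20 transcripts of METTL23, SRSF2 and MFSD11 lie between −0.39 and 0.35.

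On a per-length scale the order of the members was the same with sg2 and sg4 and differed in the controls. With sg2, summed TPM was 206.7 ± 17.1 for SRSF2, 87.7 ± 3.48 for METTL23, 14.5 ± 0.791 for MFSD11 and 12.5 ± 1.09 for JMJD6 (SD, n = 3 each). With sg4 the sums were 213.8 ± 11.9 for SRSF2, 87.6 ± 3.45 for METTL23, 15.2 ± 0.719 for MFSD11 and 8.90 ± 1.45 for JMJD6. In the controls they were 209.9 ± 12.1 for SRSF2, 93.3 ± 7.03 for METTL23, 34.0 ± 2.39 for JMJD6 and 15.8 ± 1.14 for MFSD11. JMJD6 therefore stood below MFSD11 in each group of knockout libraries, with 11.3 to 13.4 TPM against 13.6 to 15.05 TPM with sg2 and 7.56 to 10.4 TPM against 14.5 to 15.9 TPM with sg4, and above it in the controls, with 32.6 to 36.8 TPM against 14.6 to 16.8 TPM. No neighbours in the order overlapped in any group.

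The listed genes beyond the members on the same chromosome arm showed small changes where tested. Of this list of 13 flanking genes, 8 could be tested. In the mean of both guides 1 rose and 2 fell, with a median log2 fold change of −0.07. The share called was 37.5%, against 13.9% of all genes. Over all genes tested, 6.92% rose and 6.95% fell, with a median of −0.006. MXRA7, the neighbour on the JMJD6 side, had 193 to 199 CPM with sg2, 189 to 203 CPM with sg4 and 198 to 211 CPM in the controls, and differed by −0.06 on the log2 scale (edgeR adjusted p = 0.441). MGAT5B, the listed gene that follows MFSD11, stood at −0.10 (adjusted p = 0.784).

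SEPTIN9, a cytoskeletal GTP-binding protein gene, fell by 0.25 ± 0.045 on the log2 scale (SE, edgeR adjusted p = 0.000584), with 458 to 504 CPM with sg2, 477 to 516 CPM with sg4 and 569 to 591 CPM in the controls and no overlap. UBE2O, which encodes a ubiquitin-conjugating enzyme, had 68.4 to 71.7 CPM with sg2, 64.3 to 73.7 CPM with sg4 and 76.2 to 83.3 CPM in the controls, again without overlap. It fell by 0.21 (edgeR adjusted p = 0.0196), but not without control 1 (log2 fold change −0.19, edgeR adjusted p = 0.102) or control 3 (−0.18, adjusted p = 0.0991). SPHK1, a sphingosine kinase gene, rose by 0.18 (edgeR adjusted p = 0.0337), with 91.1 to 98.4 CPM with sg2, 87.8 to 100.3 CPM with sg4 and 82.1 to 88.1 CPM in the controls, where the sg4 and control libraries overlap. The SPHK1 call was lost in 6 of 9 fits that left out 1 library, those without sg2 2, sg2 3, sg4 2, sg4 3, control 2 or control 3, with log2 fold changes from 0.16 to 0.18 and edgeR adjusted p from 0.0552 to 0.134. Over all alternatives the adjusted p ran from 0.00864 to 0.376 for SPHK1 and from 0.0131 to 0.208 for UBE2O. The remaining tested genes, RHBDF2, SNHG16 and SEC14L1, stood at −0.05, 0.14 and −0.08 and were not called. With sg2 alone 0 of the 8 rose and 2 fell, SEPTIN9 and UBE2O (25%, against 10.4% of all genes). With sg4 alone 0 rose and 1 fell, SEPTIN9 (12.5%, against 8.43%). UBE2O missed the threshold with sg4 (edgeR adjusted p = 0.0632), and SPHK1 with sg2 (0.0823) and with sg4 (0.0799). The plot of the members and the flanking genes sets these values beside those of JMJD6.

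**Figure D4:**
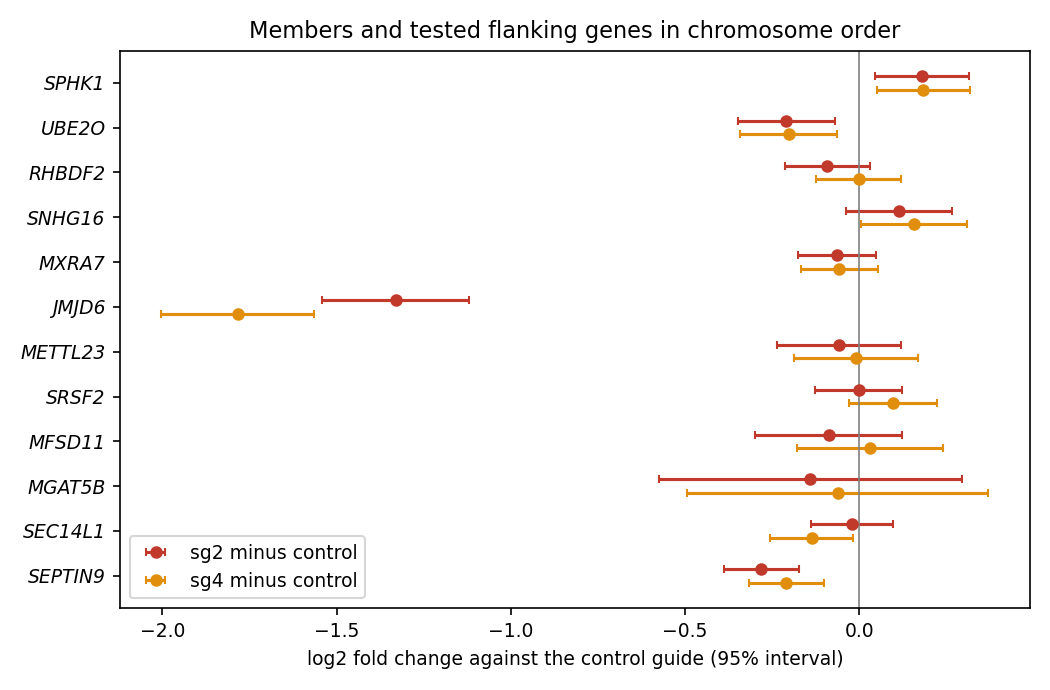
Log2 fold change against the control guide for the 4 members and the 8 tested flanking genes in the order of the chromosome, with sg2 above sg4 for each gene and the 95% interval of the edgeR fit. JMJD6 lies at −1.33 and −1.78, and the other 11 genes lie within −0.28 and 0.18 for both guides.

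Of 19 genes of the serine- and arginine-rich splicing factors related to SRSF2 and of their kinases, 18 were tested, and in the mean of both guides 3 rose and 1 fell, or 22.2% against the 13.9% called over all genes, with a median log2 fold change of 0.03. SRSF7 rose by 0.24 (edgeR adjusted p = 0.00631), with 78.9 ± 2.19 CPM with sg2, 83.3 ± 5.98 CPM with sg4 and 68.5 ± 2.27 CPM in the controls (SD, n = 3 each). The kinase gene SRPK1 rose by 0.23 (adjusted p = 0.00561; without control 3 the log2 fold change was 0.18 and the adjusted p 0.0704). SRSF6 rose by 0.15 (edgeR adjusted p = 0.0369), and this call was lost in 7 of 9 fits without 1 library, all but those without sg2 3 or sg4 1, with log2 fold changes from 0.13 to 0.16 and adjusted p from 0.0520 to 0.129. With sg2 alone 1 of the list rose and 1 fell (11.1%, against 10.4% of all genes). With sg4 alone 2 rose and 0 fell (11.1%, against 8.43%). SRSF7 was called with sg4 (edgeR adjusted p = 0.00903) but not with sg2 (0.0516), and SRSF6 with neither (0.0643 with sg2, 0.116 with sg4). The kinase gene CLK2 was called with sg2 (−0.57, edgeR adjusted p = 0.0065) but not with sg4 (−0.24, adjusted p = 0.266). In the mean of both guides CLK2 fell by 0.40 (edgeR adjusted p = 0.0165). Without control 1 and control 3 this mean was −0.37 and −0.32, with adjusted p of 0.0848 and 0.123. Over all alternatives the adjusted p ran from 0.00123 to 0.0829 for SRPK1, from 0.0164 to 0.142 for SRSF6 and from 0.000648 to 0.123 for CLK2.

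Of 14 genes for proteins reported to bind JMJD6 or to be modified by it, 13 were tested, and in the mean of both guides 1 rose and 1 fell, with a median log2 fold change of 0.03. The share called, 15.4%, lies near the 13.9% of all genes. HSPA8, a constitutive heat shock protein gene, rose by 0.40 ± 0.077 (SE, edgeR adjusted p = 0.000866). It had 749 ± 136 CPM with sg2, 858 ± 99.4 CPM with sg4 and 606 ± 46.1 CPM in the controls (SD, n = 3 each). The sg2 libraries (632 to 899 CPM) overlapped the controls (563 to 655 CPM), and the sg4 libraries (792 to 972 CPM) did not. LUC7L3, a splicing factor gene, fell by 0.26 (edgeR adjusted p = 0.00494), but not without control 1 (−0.21, adjusted p = 0.0629; 0.000106 to 0.0838 over all alternatives). U2AF2, the best known splicing substrate, stood at 0.14 on the log2 scale (edgeR adjusted p = 0.0899).

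Of 9 genes for lysine and arginine methyltransferases, listed as broad relatives of METTL23, all were tested, with a median log2 fold change of 0.04. Of these, 1 was called, or 11.1%, near the 13.9% of all genes. This was CARM1, an arginine methyltransferase gene. CARM1 was called with neither guide alone (edgeR adjusted p = 0.127 with sg2 and 0.0539 with sg4). In the mean of both guides it fell by 0.16 (edgeR adjusted p = 0.0331). It lost the call in 5 of 9 fits without 1 library, those without sg2 1, sg4 3 or any control, with log2 fold changes from −0.18 to −0.14 and adjusted p from 0.0658 to 0.132, and its adjusted p ran from 0.0259 to 0.223 over all alternatives. Of 7 transporter genes related to MFSD11, 4 were tested and 0 were called by edgeR. The edgeR test gave UNC93B1 the lowest unadjusted p of the list at 0.0128, with a value of −0.17 on the log2 scale (adjusted p = 0.0759). The other 3 had an unadjusted p above 0.05. DESeq2 values were not kept for the genes of this list.

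Ranked by how closely their level followed JMJD6 over the 9 RNA libraries, 5 genes came first among 11247 whose log2 CPM averaged 2 or more. The measure was the root mean square difference in log2 CPM after each gene was centred on its control mean, so 0 would be an identical pattern. It was 0.518 for CCDC183, 0.576 for SPMIP1, 0.593 for PRPF40B, 0.631 for KCP and 0.686 for RABL2A, against a median of 1.30 over all genes compared. The 9 libraries share the same group structure, and the measure is a description. CCDC183 had log2 differences from its control mean of −1.26, −1.61 and −1.05 with sg2, −1.56, −0.60 and −0.84 with sg4, and 0.04, −0.20 and 0.16 in the controls. JMJD6 had −1.31, −1.39 and −1.29 with sg2, −1.85, −1.55 and −1.97 with sg4, and −0.03, −0.05 and 0.07 in the controls. None of the 5 followed JMJD6 in being lower with sg4 than with sg2 in all libraries. RABL2A shares reads with a near-identical copy, so its values are uncertain.

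The ChIP data were read as the authors' peak lists, 1 list per library, with positions in hg19 counted from 1. The peaks in a window of 500 kb of chromosome 17 were taken, which holds the position of these genes near 74.7 Mb. No hg19 gene annotation was used here, so a peak is given by its position and is not assigned to a gene, an exon or an intron. Whether peaks here coincide with exons of JMJD6, and whether their reads all came from the chromatin of the labelled sample, was not analysed here, which limits what a fold enrichment at this locus measures. Fold enrichment is the authors' value over the peak caller's background, and how deeply the ChIP libraries were sequenced is unknown.

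JMJD6 libraries 1, 2 and 3 held 978, 1344 and 923 peaks in all and none in the 500-kb window. Library 4 held 1139 peaks, of which 6 lay in the window and 5 in a 40-kb core around that position. Libraries 3 and 4 belong to the same sequencing batch, so the difference is also present within it. The nearest peak of libraries 1, 2 and 3 was 431, 271 and 271 kb from the core. A peak list gives no level outside its peaks, and the difference between the libraries was not tested.

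The 5 peaks of library 4 lay in a row from 74714727 to 74722643, a span of 7917 bases of which they covered 2139. The first, chr17:74714727-74715067, had a fold enrichment of 11.5. The next, chr17:74716304-74716657, had 7.89, and chr17:74719726-74720223 had 15.9. The highest was chr17:74721451-74722073, 623 bases wide, with a fold enrichment of 18.7 and a −log10 q of 60.6. The last, chr17:74722321-74722643, had 10.2. The gaps between them were 1236, 3068, 1227 and 247 bases.

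Within library 4 these heights were not extreme, since the highest of the 5 ranked 196 of 1139 by fold enrichment and the lowest 668. Of the peaks of library 4, 164 (14.4%) overlapped no peak of the other JMJD6 libraries, and the 5 ranked 1, 2, 4, 5 and 21 by fold enrichment among those. The sixth peak of the window, chr17:74553690-74553866, had a fold enrichment of 5.33 and ranked 130 of the 164.

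The H3K4me3 lists held 18745 peaks in library 1 and 18601 in library 2, of which 10 each lay in the window. Of these, 8 of library 1 overlapped a peak of library 2, and 10 of library 2 overlapped a peak of library 1. The core held 3 places with the mark in both libraries. The first ran from 74705069 to 74707485 in library 1 with a fold enrichment of 46.5, and in library 2 it was split into a peak of 56.9 and one of 9.85.

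The middle H3K4me3 peak was chr17:74721143-74724365 with a fold enrichment of 88.7 in library 1 and chr17:74721226-74724596 with 105.7 in library 2. The last 2 of the 5 JMJD6 peaks of library 4 overlapped it in both libraries, and the first 3 overlapped no H3K4me3 peak. Over the whole list of library 4, 79.7% of JMJD6 peaks overlapped H3K4me3 in both libraries. The third place was wider, 4932 bases in library 1 (chr17:74730286-74735217, fold enrichment 93.0) and 4826 bases in library 2 (chr17:74730388-74735213, 145.9). By width it ranked 176 of 18745 and 163 of 18601, and by fold enrichment it ranked 2536 in library 1 and 108 in library 2. No JMJD6 peak of any library lay within it.

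**Figure D5:**
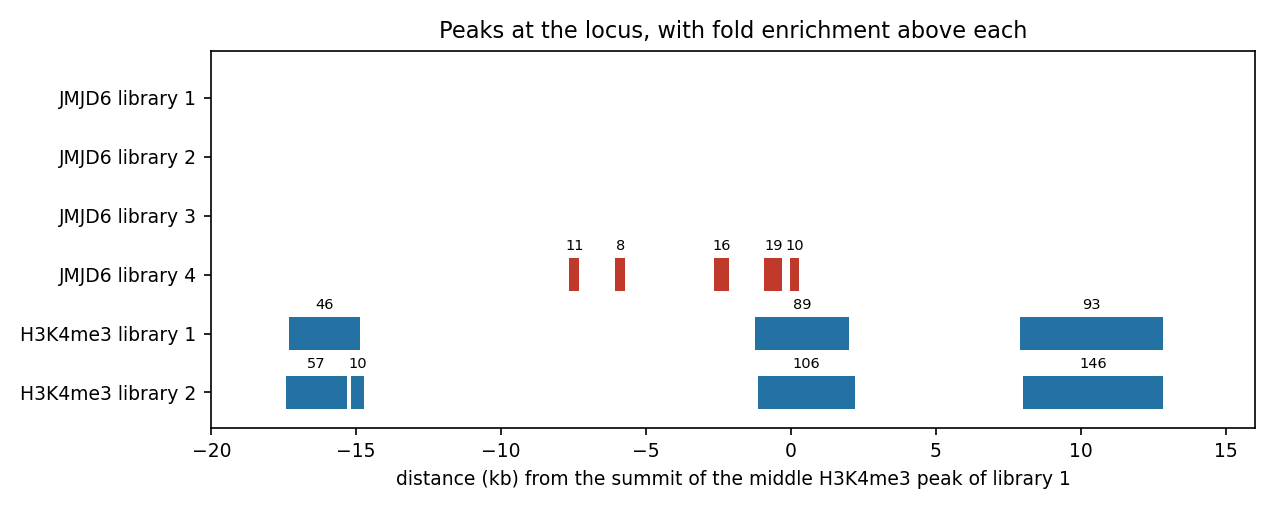
Peaks in the core of the locus in each ChIP library (red, JMJD6; blue, H3K4me3), drawn to scale by distance in kb from the summit of the middle H3K4me3 peak of library 1, with the authors' fold enrichment, rounded, above each peak. JMJD6 libraries 1 to 3 have no peak here, library 4 has 5, and 2 of these lie over the middle H3K4me3 peak.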

How the data were processed

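Per the file headers, the deposited tables gave Salmon's estimated counts and TPM per RefSeq transcript for 9 RNA libraries, with TPM scaled to effective length and to a fixed sum. The deposited peak lists are in narrowPeak layout, with a score, a fold enrichment and −log10 p- and q-values per peak, 1 list per library. The submitters' processing notes name the builds hg19 and GRCh37, the peak caller MACS2 2.1.2, bedtools 2.26, bcl2fastq 2.20.0, STAR 2.5.2b, cutadapt 1.12, DESeq2 and Salmon. The strand setting, the assignment of shared reads and the use of the 6 inputs, which were not used here, are not given in the sources used here. The treatment text describes siRNA, the titles and the extraction text guides.

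Transcript counts (all whole numbers) were summed per gene by the names of assembly GRCh38.p14, which matched 58031 of 60422 accessions (96.0%), and the unmatched ones held 1.33 to 1.65% of a library's counts. All 9 libraries entered 1 quasi-likelihood fit in edgeR 4.0.16 (R 4.3.3) with TMM normalisation after filterByExpr, 2-sided, Benjamini-Hochberg over 13530 genes or 34794 transcripts, and isoform use was tested with diffSpliceDGE. Intervals are at 95%. Alternatives were DESeq2 1.42.0, its size factors, no filter, limma 3.58.1 on log2(TPM + 0.5), offsets for a trend with transcript length, a replicate block and left-out libraries. The scripts were tested on simulated data. The precision of a value is limited by 3 libraries per group and by the depth of 14224263 to 16300347 estimated counts. Peaks were shared when they overlapped by 1 base or more.

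The members, lists and alternatives were chosen with earlier results of these data known. Named genes were the members with all their transcripts, every called list member, and the 5 genes most like JMJD6. U2AF2, UNC93B1 and the uncalled flanking genes were named after their values were seen. Some items are not reported here, and the list of JMJD6 partners is given without them.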

Additional observations from a re-analysis of the deposited data

Results flagged for a closer look

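JMJD6 ChIP library 4 stood apart from libraries 1 to 3 at the locus. It had 6 peaks in the 500-kb window, against 0 in each of the other 3 libraries, and 5 peaks in the 40-kb core, again against 0. Both counts were picked out because the gap between library 4 and the nearest other library made up the whole range of the 4 values. For values on a continuous scale such a criterion picks out about 1 in 20 groups by chance, and its rate for counts with 3 libraries tied at 0 was not computed. The core lies within the window, so the 2 counts are not separate evidence. The total number of peaks did not set library 4 apart, with 1139 against 978, 1344 and 923.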

How the results depend on the processing

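JMJD6 was called under each guide and in the mean of both in all 15 alternatives, with log2 fold changes from −1.35 to −1.29 for sg2, −1.91 to −1.70 for sg4 and −1.62 to −1.51 for both. Its difference between guides was −0.45 and passed the threshold only with no filter. METTL23, SRSF2 and MFSD11 as genes were called in none. Their signs near 0 turned. SRSF2 with sg2 was 9.36e-05 with DESeq2 size factors, 9.37e-05 with DESeq2, 0.0128 with length offsets and 0.0286 without control 3, sg4 2 and sg4 3. These 3 libraries were left out for a trend by transcript length, whose values are not given here. METTL23 for sg4 against sg2 was −0.00364 with length offsets and −0.0286 without those 3 libraries. Level NR_036608 was −0.0203 by limma on TPM. The fit without those 3 libraries left sg4 with 1 library, assumed to vary like the others, and called 1116 genes for both guides and 358 for sg4. Of the 14 called list genes, SEPTIN9, HSPA8 and KRT18 were called in all 15 alternatives. COL1A2 and LUM were not called without control 1. The other 9 each missed the threshold in at least 1 alternative, SRSF7 only in the fit without control 3, sg4 2 and sg4 3. The causes were not tested.

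With each library left out in turn, the lowest and highest log2 fold changes in the mean of both guides were −0.0989 and 0.0400 for METTL23, −0.0799 and 0.000489 for MFSD11, and 0.0137 and 0.0798 for SRSF2. With sg2 they were −0.123 and 0.0163 for METTL23, −0.0680 and 0.0612 for SRSF2 and −0.141 and −0.0331 for MFSD11, and with sg4 −0.0752 and 0.0638 for METTL23 and −0.0213 and 0.0628 for MFSD11. Level NR_036608 ran from −0.0119 to 0.0873, and NR_036608 against its gene from −0.0425 to 0.0200. The number of genes called ran from 938 (without control 1) to 1878 for both guides (1877 with all libraries), from 735 to 1595 for sg2 and from 606 to 1227 for sg4. The number of JMJD6 peaks in the window ran from 0, without library 4, to 6.

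The replicate numbers showed no sign of pairing the samples. The correlation of deviations between same-numbered libraries had a median of −0.0584 (−0.241 to 0.0952), against 0.0308 between different numbers. With 3 libraries per group, these values cannot show that same-numbered libraries were not handled together. With the replicate number as a block, 1527 genes were called for both guides, JMJD6 remained called, and SPHK1, SRSF6 and CARM1 missed the threshold at edgeR adjusted p of 0.0562, 0.0635 and 0.0534. Depth limits the transcripts of METTL23 and MFSD11 most, several of which had fewer than 50 counts per library.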
